A study of Mus musculus with 17 samples.

Results

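The genes described here were 8 markers of the thick ascending limb of the loop of Henle and of the distal convoluted tubule: Umod, Slc12a1, Kcnj1, Bsnd, Cldn16, Egf, Slc12a3 and Pvalb. They were chosen by name as segment markers and transport genes, with no measured value in the rule. Earlier results of these data were known at that choice. All 8 were among the 53313 gene identifiers common to the 17 count files. The libraries fell into 5 groups of wild-type C57BL/6Rj mice, a strain that the study's methods write as C57BL/6JRj. Non-senescent primary tubular epithelial cells (PTEC, n = 4) were harvested at day 6 of culture without treatment. Senescent PTEC (n = 4) had received 10 Gy of γ-irradiation and were harvested at day 16, so that irradiation and time in culture cannot be told apart. Whole kidneys came from mice of 3, 12 and 24 months (n = 3 each). The study describes these mice as healthy males. PTEC were grown from sieved tubular fragments of collagenase-digested kidneys. The labels call them proximal tubular cells, and no step that selects 1 segment is described. Nothing in the labels says that the 4 cultures of a group came from separate mice, so that their p-values measure the spread between cultures. The comparison of PTEC asked how irradiation-induced senescence changed tubular cells, and that of the kidneys asked what changed with age.

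The thick ascending limb and the distal convoluted tubule reabsorb salt without water and thereby set urine dilution and part of the urinary loss of calcium, magnesium and potassium. In the thick ascending limb the cotransporter NKCC2 (Slc12a1), the target of loop diuretics, takes up sodium, potassium and chloride. The potassium channel ROMK (Kcnj1) returns potassium to the lumen, barttin (Bsnd) is a subunit needed for chloride exit on the basolateral side, and claudin-16 (Cldn16) forms part of the paracellular path for magnesium and calcium. Uromodulin (Umod) is the most abundant protein of normal urine and is secreted by the same cells. In the distal convoluted tubule the thiazide-sensitive cotransporter NCC (Slc12a3) takes up sodium and chloride, and parvalbumin (Pvalb) is a calcium-binding protein of its early part. Epidermal growth factor (Egf) is made in both segments as a membrane-bound precursor, and its release acts on magnesium uptake.

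Depth was 26963442 to 35409144 counts per PTEC library and 37311247 to 66894790 per kidney. The 8 genes together took 0.00208% to 0.00729% of the counts of a non-senescent PTEC library and 0.000306% to 0.000844% of a senescent one, against 0.382% to 0.678% of those of a kidney. Of 12 proximal tubule markers, 8 reached a mean level of 1 CPM (the usual depth-scaled count, on library sizes scaled by TMM) in non-senescent PTEC and 5 in senescent PTEC. The endocytic receptor Lrp2 had means of 203 and 227 CPM there, whereas the phosphate transporter Slc34a1 had means of 9.12 and 0.0248 CPM against 4179 CPM in 3-month-old kidneys. Slc34a1 spread from 0.197 to 22.4 CPM between non-senescent cultures and was near 0 in senescent ones. Some of the 12 markers of the labelled cell type were thus under a mean of 1 CPM in culture.

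The promoters of 4 of the genes are shown. Of these, Umod, Slc12a1 and Cldn16 fell in senescent PTEC. Slc12a3, the marker of the other segment, was at the limit of detection there. Kcnj1 and Bsnd fell as well, and the promoter of Kcnj1 was searched but is not printed. RefSeq entries on GRCm38.p6 matched 7 of the 8 genes, all but Bsnd, with 9 promoters. Each run reads 5′ to 3′ on the gene's strand and ends just before the most upstream annotated start. Capitals mark matches, on either strand, to the 5 motifs searched, which are spelled out after the sequences.
Umod, chr7:119479283-119479512, minus strand: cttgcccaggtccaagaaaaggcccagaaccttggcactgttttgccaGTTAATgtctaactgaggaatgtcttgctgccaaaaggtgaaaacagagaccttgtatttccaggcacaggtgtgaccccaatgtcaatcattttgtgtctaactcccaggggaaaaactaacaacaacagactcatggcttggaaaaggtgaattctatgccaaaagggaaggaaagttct
Slc12a1, chr2:125152350-125152504, plus strand: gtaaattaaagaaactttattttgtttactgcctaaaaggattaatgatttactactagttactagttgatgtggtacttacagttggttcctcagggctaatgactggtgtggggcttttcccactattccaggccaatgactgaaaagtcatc
Cldn16, chr16:26462885-26463134, plus strand: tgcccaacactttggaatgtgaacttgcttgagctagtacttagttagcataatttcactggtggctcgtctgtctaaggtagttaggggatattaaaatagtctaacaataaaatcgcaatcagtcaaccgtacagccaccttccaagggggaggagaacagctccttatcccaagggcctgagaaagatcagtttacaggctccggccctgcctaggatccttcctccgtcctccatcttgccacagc
Slc12a3, chr8:94328958-94329200, plus strand: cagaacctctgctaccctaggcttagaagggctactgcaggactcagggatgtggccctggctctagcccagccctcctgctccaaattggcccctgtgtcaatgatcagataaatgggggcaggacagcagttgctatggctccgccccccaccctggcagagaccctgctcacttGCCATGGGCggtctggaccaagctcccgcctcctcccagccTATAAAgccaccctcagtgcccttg
In windows from 250 bases before to 50 after the RefSeq start, GTTAAT, bound by HNF1 factors, was found in 7.10% of all 32851 promoters of the table. The oestrogen-related receptor element TCAAGGTCA was found in 0.423%, the promoter element TATAAA in 13.6%, the AP-1 motif TGANTCA in 7.81% and the AP-2 motif GCCNNNGGC in 16.6%. Umod held 1 GTTAAT at position -202 and 1 AP-2 match at 40. Slc12a3 held a TATAAA at -32 and an AP-2 match at -73, and these 2 motifs do not overlap there. Cldn16 had 1 AP-2 match at -2, across the start and therefore outside the printed run, and both promoters of Pvalb had 1 each. None of the 5 motifs was found in the windows of Slc12a1, Kcnj1 and Egf. TCAAGGTCA and TGANTCA were found in none of the 9. The matches are a description, and no library measured binding at these sites.

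In senescent PTEC the transport genes of the thick ascending limb fell to a small remainder of their level in non-senescent PTEC, while Egf did not move with them. A gene was called when the adjusted p of edgeR's quasi-likelihood test was under 0.05 and the absolute log2 fold change above 0.5. Of the 8 genes, 6 passed the filter on low counts and were tested, 5 were called lower and 0 higher. Over all 15434 genes tested, 19.7% were called lower and 20.1% higher. A gene passes this filter when 1 of the groups is high enough, and Slc12a3 and Pvalb did not pass. Umod, Slc12a1, Kcnj1 and Bsnd had at most 16, 13, 2 and 8 counts per senescent library. They passed through the non-senescent group, where they were higher, which favours lower values among the tested genes. The median log2 fold change of the 6 was -4.16, beside -0.00 over all genes tested, and is given as a description. Counting also the untested genes, 6 of 8 had every senescent culture below every non-senescent one, which held for 19.9% of all genes tested.

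**Figure D1:**
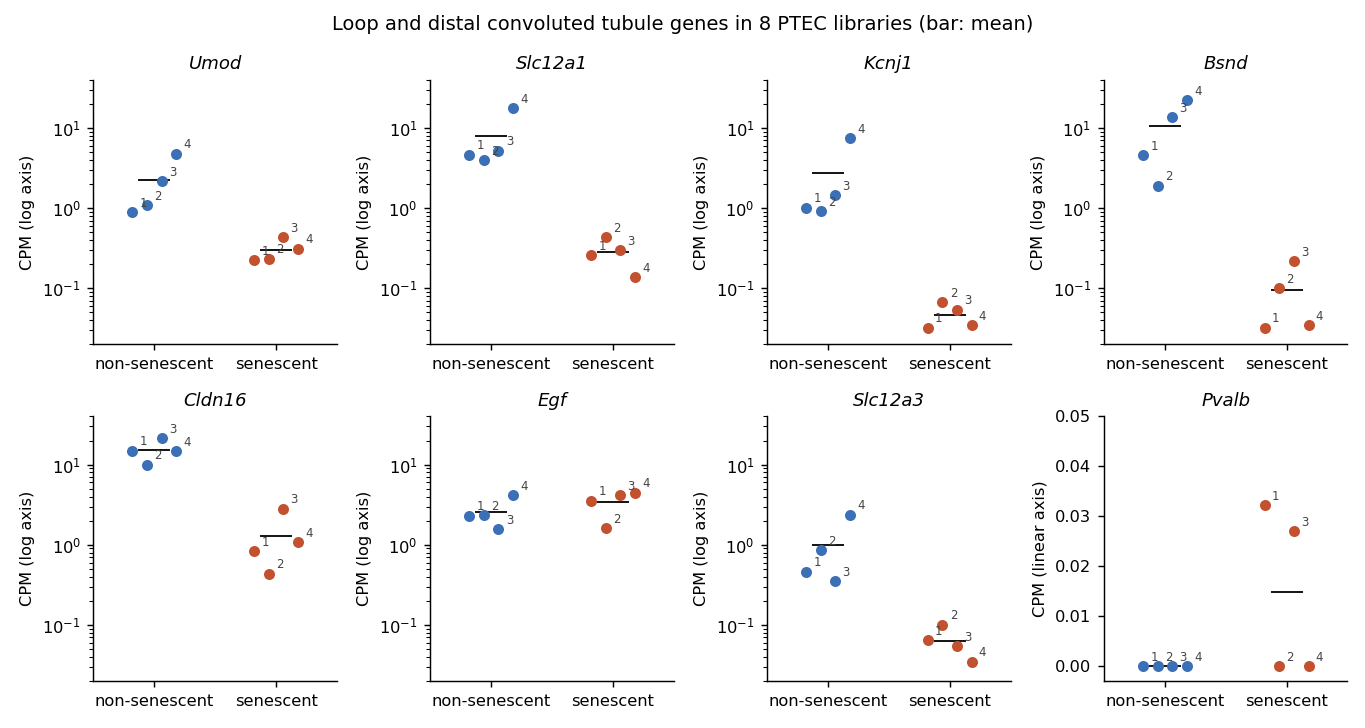
CPM of each gene in the 4 non-senescent (blue) and 4 senescent (red) PTEC libraries, with the culture number beside each point and the group mean as a bar. The vertical axis is logarithmic except for Pvalb. For Umod, Slc12a1, Kcnj1, Bsnd, Cldn16 and Slc12a3 every red point lies below every blue one, whereas the groups overlap for Egf, and Pvalb shows single counts only.

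Slc12a1, the apical salt entry of the thick ascending limb, was at 4.61, 3.94, 5.22 and 17.6 CPM in non-senescent cultures 1 to 4 and at 0.257, 0.435, 0.297 and 0.138 CPM in senescent ones. Culture 4 was the highest of the non-senescent and the lowest of the senescent group, and the groups did not overlap. The log2 fold change was -4.77 (SE 0.609, adjusted p = 0.000274). An antisense gene, Gm14002, overlaps Slc12a1 and had 15 to 39 counts per PTEC library, more than the 4 to 13 counts of Slc12a1 in senescent cultures. The strand setting of the counting is not stated. In the kidneys Gm14002 had 0 or 1 count per library, where Slc12a1 had 15765 to 61468, so that reads of Slc12a1 were not counted as Gm14002 there, and the other direction was not tested.

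Kcnj1, the luminal potassium channel, was at 1.01, 0.919, 1.45 and 7.49 CPM in non-senescent cultures. In senescent cultures it was at 0.0322, 0.0670, 0.0540 and 0.0345 CPM, which were 1 or 2 counts each. The pooled ratio of 301 to 6 counts was 55.1 (95% interval 25.01 to 151, exact, counting error only), and edgeR's log2 fold change was -5.72 (SE 0.932, adjusted p = 0.00104). Bsnd, which encodes barttin, was at 4.55, 1.90, 13.6 and 22.1 CPM in non-senescent cultures. It was at 0.0322, 0.10, 0.216 and 0.0345 CPM in senescent ones, from 1 to 8 counts. Bsnd spread widely between untreated cultures, and even the lowest of them, culture 2, was above all senescent cultures. Its log2 fold change of -6.65 was the lowest among the 6 tested genes (SE 0.926, adjusted p = 0.000444).

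Cldn16, the claudin of the magnesium and calcium path, was at 14.9, 9.95, 21.3 and 14.7 CPM in non-senescent cultures. It had the highest mean of the 8 there, per kilobase as well. In senescent cultures it was at 0.836, 0.435, 2.81 and 1.07 CPM, with a log2 fold change of -3.54 (SE 0.510, adjusted p = 0.000538). Culture 3 was the highest of both groups. Umod, the urinary glycoprotein, was at 0.891, 1.08, 2.16 and 4.76 CPM in non-senescent and at 0.225, 0.234, 0.432 and 0.311 CPM in senescent cultures, from 7 to 16 counts in the latter. The log2 fold change was -2.85 (SE 0.572, adjusted p = 0.00323).

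Egf, the growth factor precursor, was at 2.31, 2.33, 1.57 and 4.13 CPM in non-senescent cultures and at 3.54, 1.61, 4.19 and 4.49 CPM in senescent ones. The groups overlapped, and the log2 fold change of 0.42 did not pass the test (SE 0.381, adjusted p = 0.400). Slc12a3, the salt entry of the distal convoluted tubule, did not pass the filter of the main test. Its levels were 0.461, 0.853, 0.353 and 2.36 CPM in non-senescent cultures and 0.0643, 0.10, 0.0540 and 0.0345 CPM in senescent ones. These were 9 to 64 counts per library against 1 to 3, with a pooled ratio of 15.6 (95% interval 7.68 to 37.1, exact, counting error only). Settings that did test Slc12a3 called it lower, which made 6 called genes: the log2 fold change was -4.00 with DESeq2, -3.92 with no filter and -4.18 to -3.07 in the 6 fits without 1 culture that kept it. Without both cultures numbered 4 it was -2.89 (adjusted p = 0.00645 in edgeR). Pvalb had 0 counts in every non-senescent library, which allows up to 0.0260 CPM over the group, and 2 counts in all senescent libraries together, so no fold was formed.

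Non-senescent culture 4 was the highest for 6 of the 8 genes. Its summed proximal tubule markers were at 853 CPM against 215 to 260 CPM in cultures 1 to 3, and its principal cell markers at 65.4 CPM against 13.5 to 26.6 CPM. The 5 calls were kept without the cultures numbered 4 of both groups and without any single culture. Their sizes moved more: without non-senescent culture 4 the log2 fold change of Kcnj1, which had 203 of its 301 counts there, was -4.46, that of Slc12a1 -4.00, that of Bsnd -6.00 and that of Umod -2.16. Without senescent culture 3 it was -7.45 for Bsnd and -4.27 for Cldn16. In bulk samples, fewer cells of a type and less RNA per cell cannot be told apart. Fibroblast markers were called higher in senescent PTEC for 5 of 7 genes, and their summed level was 17.5 to 108 CPM in non-senescent and 130 to 482 CPM in senescent cultures. The part of this shift in the fall of the 5 genes was not tested.

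Other genes of the same segments were taken from lists drawn up by name. Of 14 other loop of Henle genes, 10 were tested, 5 were called lower and 0 higher, with a median log2 fold change of -0.99. Cldn10 and Cldn19, the latter the partner of claudin-16, were lower by log2 values of -3.36 and -2.67, at adjusted p of 0.00160 and 0.00150 in edgeR. The counts are per gene, so that isoforms of Cldn10 were not told apart. Esrrb, which encodes an oestrogen-related receptor, was called lower too, at -2.17 (adjusted p = 0.000569). Not all genes of the list moved: the prostaglandin receptor Ptger3 had a log2 fold change of 0.24 (SE 0.304, adjusted p = 0.557).

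Of 16 other genes of the distal convoluted and connecting tubule, 14 were tested, 5 were called lower and 3 higher, with a median log2 fold change of -0.44, also with Klk1 at its bound. Klk1, tissue kallikrein, had 15 to 42 counts per non-senescent library and 0 in every senescent one, and was at least 37.7-fold lower against a limit of 3 counts over the group. Fxyd2, a subunit of the sodium pump, fell from a mean of 236 to 14.5 CPM (log2 fold change -4.02, SE 0.644, adjusted p = 0.000948). Kcnj10, a basolateral potassium channel, had a log2 fold change of -2.53 (adjusted p = 0.0162). It spread widely in non-senescent cultures, from 0.615 to 5.65 CPM around a mean of 2.09 CPM, against 0.297 to 0.484 CPM in senescent ones. The magnesium channel Trpm6 was called higher, at 1.01 (adjusted p = 0.0426), as were the calcium pump Atp2b4, at 2.03 (adjusted p = 0.0133), and Slc41a3, at 0.70 (adjusted p = 0.0354). The call of Atp2b4 was kept without any single culture, that of Trpm6, whose groups overlapped, in 3 of 8 such fits and that of Slc41a3 in 2 of 8.

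**Figure D2:**
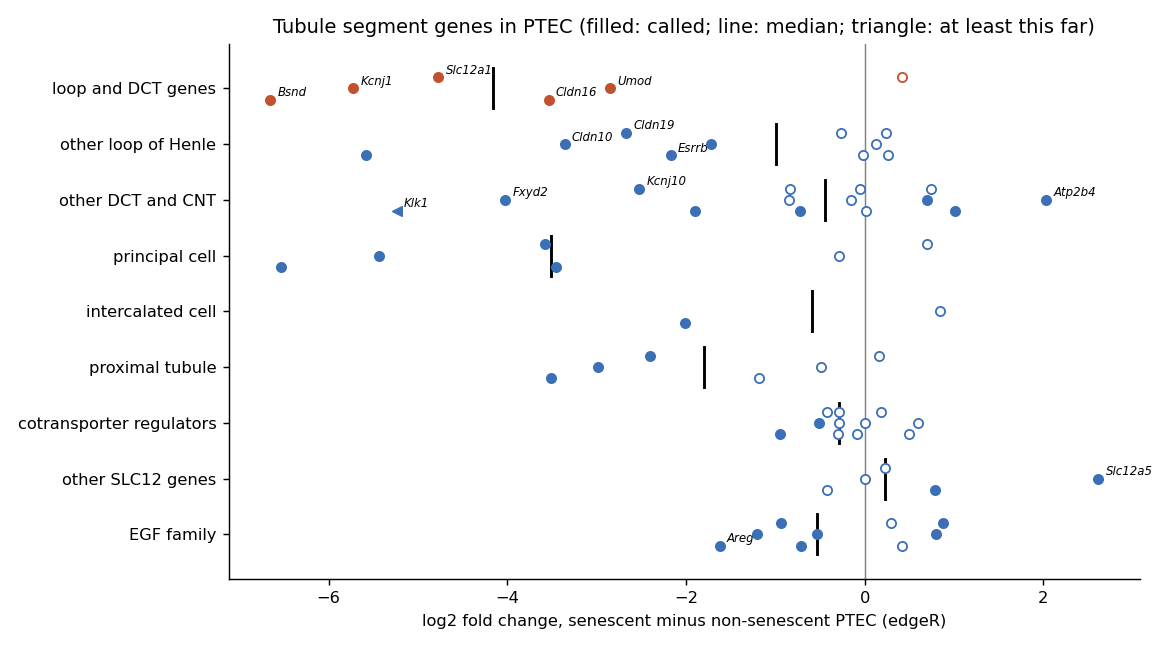
Log2 fold change of senescent over non-senescent PTEC for each tested gene of 9 lists, 1 row per list, with called genes filled, the median of each list as a black line, and Klk1 as a triangle at its bound. The 6 tested loop and distal convoluted tubule genes, which leave out Slc12a3 and Pvalb, had a median of -4.16. The median was -3.52 for the principal cell markers, -0.99 for the other loop genes and -0.28 for the cotransporter regulators.

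Of 11 regulators of the cotransporters, all tested, 2 were called lower and 0 higher, beside 19.7% and 20.1% of all genes tested. These were the kinase Wnk4, at -0.94 (adjusted p = 0.0186), and Cab39l, at -0.51 (adjusted p = 0.00533), kept in 7 and 5 of the 8 fits that left out 1 culture. Of the 5 other cation chloride cotransporters, 2 were called higher, namely Slc12a5 at 2.62 and Slc12a4 at 0.79, and 0 lower. Of the EGF receptors and other EGF family ligands, 9 of 10 were tested, of which 2 were called higher and 5 lower. The receptor Egfr rose from a mean of 187 to 344 CPM (log2 fold change 0.88, adjusted p = 0.0196, kept in 6 of 8 such fits), and the ligands Areg and Btc were called lower at -1.62 and -1.20. Principal cell markers of the collecting duct were called lower for 4 of 6 tested genes, and proximal tubule markers for 3 of 6. A fall was therefore not particular to the loop and distal convoluted tubule, and no test compared the lists.

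In whole kidneys the 8 genes covered a wide range of levels. Per kilobase of the principal transcript, Umod had a mean of 1135 CPM in 3-month-old kidneys, Egf 205, Slc12a1 124, Slc12a3 91.5, Kcnj1 72.2, Bsnd 26.8, Pvalb 20.0 and Cldn16 11.2. In this order Umod was above Egf, Kcnj1 above Bsnd, and Pvalb above Cldn16 in each kidney of that age, and the libraries of the other neighbours overlapped. Per kilobase of all merged exons the order of Slc12a1, Egf, Kcnj1 and Slc12a3 changed, because Egf and Slc12a3 have long merged exons of 11.3 and 11.1 kb. Umod was first on both length scales at all 3 ages. In non-senescent PTEC the order was another, with Cldn16 first at 13.0 CPM per kb and Bsnd next at 3.83. Set beside 3-month-old kidneys, with no test since the experiments differ, mean CPM in non-senescent PTEC was 116% for Cldn16, 14.3% for Bsnd, 1.36% for Slc12a1, 1.26% for Kcnj1, 0.334% for Slc12a3, 0.265% for Egf and 0.0747% for Umod. Without non-senescent culture 4 it was 117% for Cldn16, 9.04% for Bsnd, 0.797% for Slc12a1, 0.523% for Kcnj1, 0.184% for Slc12a3, 0.212% for Egf and 0.0462% for Umod.

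With age, 1 of the 8 genes, Bsnd, was called in a comparison, and it was lower in both older groups than at 3 months. All 8 genes were tested in the kidneys. Between 24 and 3 months 1 was called lower and 0 higher, against 0.451% and 1.89% of all 17067 genes tested. Between 12 and 3 months 1 was called lower and 0 higher, against 1.36% and 1.22%. Between 24 and 12 months no gene of the 8 was called, against 0.896% of all genes called higher and 0.434% called lower. At an unadjusted p under 0.05, 1 gene of the 8, Slc12a1, passed in that last comparison, beside 2602 of all 17067 genes tested. There DESeq2 called 0 of the 8, beside 493 higher and 286 lower of 30029 genes. The 2 comparisons with 3 months share the 3-month kidneys.

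**Figure D3:**
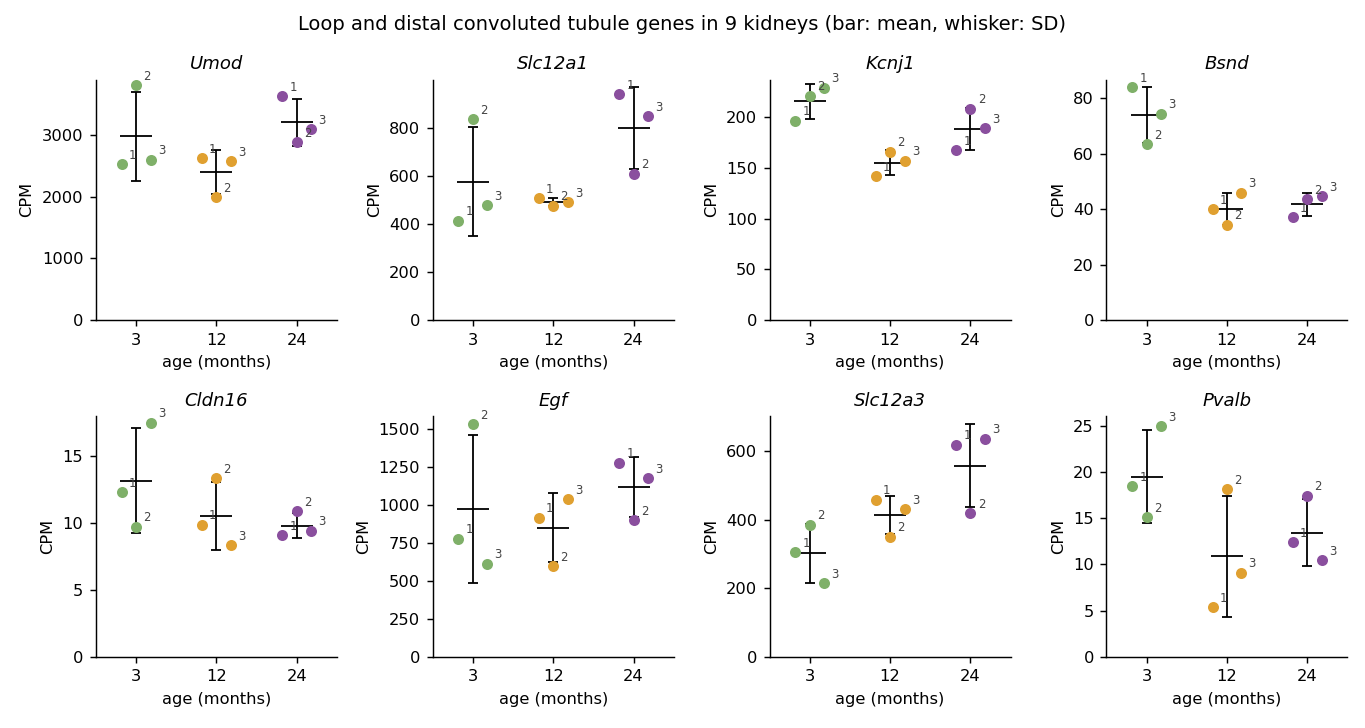
CPM of each gene in kidneys of 3, 12 and 24 months (n = 3 each), with the replicate number beside each point, the mean as a bar and the SD as whiskers. The vertical axes start at 0. Bsnd is at 63.5 to 84.0 CPM at 3 months and at 34.3 to 45.9 CPM in the 6 older kidneys, and Slc12a3 has its highest mean at 24 months.

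Bsnd was at 84.0, 63.5 and 74.4 CPM in 3-month-old kidneys, at 40.1, 34.3 and 45.9 CPM at 12 months and at 37.1, 43.6 and 44.7 CPM at 24 months. Each older kidney was below each young one, and the 2 older groups overlapped. The log2 fold change was -0.88 at 12 months (SE 0.166, adjusted p = 0.0347) and -0.82 at 24 months (SE 0.166, adjusted p = 0.0400), with 0.06 between 24 and 12 months (SE 0.165, adjusted p = 0.871). The calls rested on all libraries: the call was lost without any 1 of the kidneys except 3-month replicate 2, with adjusted p from 0.102 to 0.192 at 24 months and from 0.0798 to 0.153 at 12 months, while the log2 fold change stayed between -0.99 and -0.72. With the replicate block the adjusted p was 0.114 at 24 months and 0.0960 at 12 months. The 3-month kidneys were counted on a gene set of 54146 identifiers and the older ones on 55401, which cannot be told apart from age, although the identifier of Bsnd has the same version in both.

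Slc12a3 was at 305, 385 and 215 CPM at 3 months, at 459, 351 and 432 CPM at 12 months and at 619, 420 and 637 CPM at 24 months. Every kidney of 24 months was above every kidney of 3 months, which held for 11.9% of all genes tested, and the 12-month kidneys overlapped both. The log2 fold change between 24 and 3 months was 0.89 (SE 0.247) and did not pass the test (adjusted p = 0.111). DESeq2 called it, with an adjusted p of 0.0381, and so did edgeR without 3-month replicate 2, at a log2 fold change of 1.11 (adjusted p = 0.0490). Between 12 and 3 months the log2 fold change was 0.46 (adjusted p = 0.418), and between 24 and 12 months 0.43 (adjusted p = 0.439).

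Slc12a1 was at 414, 836 and 477 CPM at 3 months, at 507, 475 and 490 CPM at 12 months and at 939, 609 and 848 CPM at 24 months. The 3 kidneys of 24 months were above those of 12 months, with a log2 fold change of 0.70 (SE 0.270, adjusted p = 0.260), whereas 3-month replicate 2 lay within the range of 24 months. Umod, at 2528, 3807 and 2601 CPM at 3 months, was at 2625.3, 1988 and 2576 CPM at 12 months and at 3630, 2887 and 3096 CPM at 24 months. Its log2 fold changes were -0.31 between 12 and 3 months, 0.11 between 24 and 3 months and 0.42 between 24 and 12 months, with adjusted p of 0.517, 0.761 and 0.363. The antisense gene Gm44588, which overlaps Umod, had 100 to 170 counts per kidney at 3 months, 392 to 636 at 12 months and 844 to 1084 at 24 months, against at least 96276 counts of Umod. Kcnj1 was at 197, 221 and 229 CPM at 3 months, at 142, 166 and 157 CPM at 12 months and at 168, 209 and 189 CPM at 24 months. The 12-month kidneys were below both other groups, with a log2 fold change of -0.47 from 3 months (SE 0.142, adjusted p = 0.124). Groups that did not overlap were found for Bsnd alone among lower genes at 24 months (10.1% of all genes tested), for Bsnd and Kcnj1 among lower genes at 12 months (9.4%), and for Umod, Slc12a1 and Kcnj1 among higher genes from 12 to 24 months (13.5%).

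Egf was at 780, 1532 and 613 CPM at 3 months, at 918, 596 and 1040 CPM at 12 months and at 1281, 900.1 and 1176 CPM at 24 months. The 3 ages overlapped, and no log2 fold change passed the test, with adjusted p from 0.605 to 0.867. Cldn16 was at 12.3, 9.71 and 17.5 CPM, then 9.85, 13.3 and 8.34 CPM, then 9.09, 10.9 and 9.42 CPM, and Pvalb at 18.5, 15.1 and 24.97 CPM, then 5.38, 18.1 and 9.09 CPM, then 12.4, 17.4 and 10.4 CPM at the 3 ages. Both overlapped between all ages. Their log2 fold changes between 24 and 3 months were -0.43 (adjusted p = 0.364) and -0.54 (adjusted p = 0.462).

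**Figure D4:**
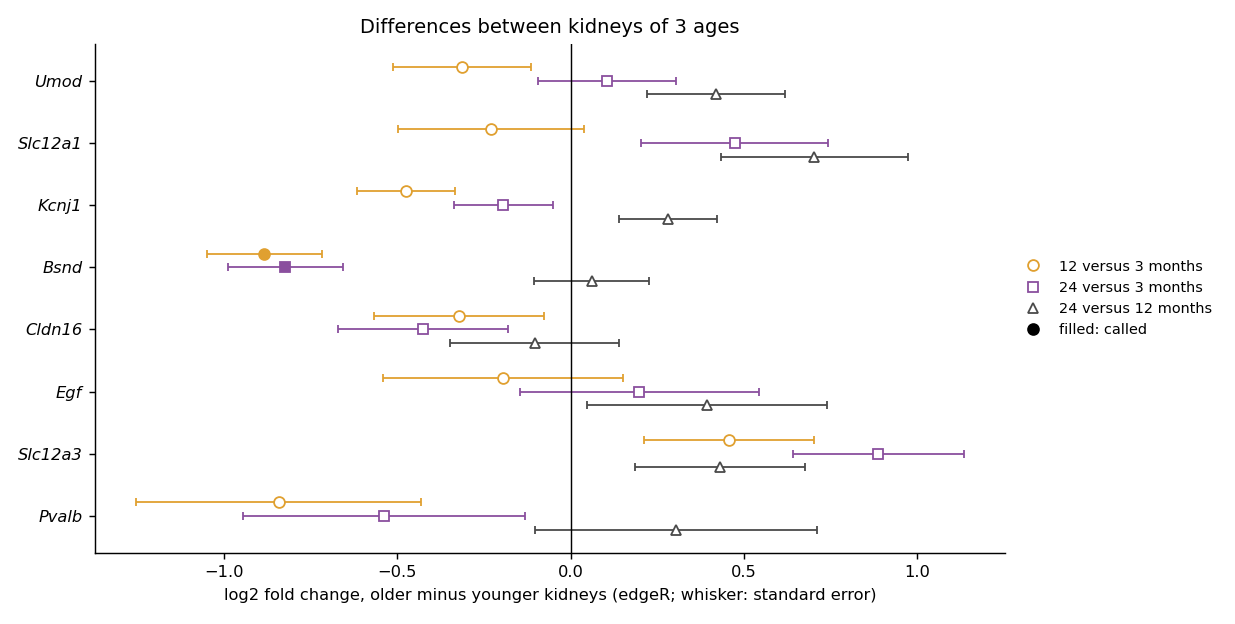
Log2 fold change of each gene between kidneys of 2 ages, with the standard error of edgeR's fit as whiskers and called values filled. Bsnd is filled at 12 versus 3 months (-0.88) and 24 versus 3 months (-0.82), and Slc12a3 has the highest value, 0.89 at 24 versus 3 months, unfilled.

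Within single kidneys the ratio of the distal to the loop cotransporter was also followed, since a ratio does not move with a factor that scales both genes. The log2 ratio of Slc12a3 to Slc12a1 was -0.44, -1.12 and -1.15 at 3 months, -0.14, -0.44 and -0.18 at 12 months and -0.60, -0.54 and -0.41 at 24 months. Replicates 2 and 3 of 3 months were below all older kidneys, and replicate 1 lay within the range of the older ones. The log2 ratio of Umod to Slc12a1 was 2.42 ± 0.213 (SD, n = 3) at 3 months, 2.28 ± 0.185 at 12 months and 2.02 ± 0.198 at 24 months. That of Egf to Umod was -1.70 ± 0.386, -1.52 ± 0.214 and -1.53 ± 0.144. That of Pvalb to Slc12a3 was -3.94 ± 0.791 at 3 months, -5.42 ± 1.08 at 12 months and -5.39 ± 0.705 at 24 months. Replicate 2 of 12 months (-4.28) and of 24 months (-4.59) lay within the 3-month range of -4.68 to -3.11. Pvalb and Slc12a3 also went in opposite directions with the balance of long and short transcripts described below (Pearson's r -0.63 and 0.82). This ratio does not remove that balance. No test was made on these ratios.

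Other genes of these segments were tested in the kidneys too. Of 13 other loop genes tested, 0 were called at 24 versus 3 months, 1 at 12 versus 3 months and 0 at 24 versus 12 months. The call was Cldn19, at -0.86 (adjusted p = 0.0453), and it was lost in each of the 6 fits that left out 1 kidney (adjusted p 0.0640 to 0.167). Of 16 genes of the distal convoluted and connecting tubule, all tested, 2 were called at 24 versus 3 months and 0 in the other comparisons. The sodium-calcium exchanger Slc8a1 rose from a mean of 16.2 to 97.7 CPM (log2 fold change 2.59, SE 0.460, adjusted p = 0.0242), and Klk1 fell from 1791 to 866 CPM (log2 fold change -1.05, SE 0.212, adjusted p = 0.0402). These calls were kept in 2 and 1 of the 6 fits that left out 1 kidney, with adjusted p up to 0.142 and 0.187. The versioned identifier of Slc8a1 differed between the 3-month and the older files, so that its gene model changed together with age, whereas that of Klk1 was the same. None of the 11 regulators, the 5 other cotransporters and the 7 tested genes of the EGF family was called between any 2 ages by edgeR. Beside the fall of Bsnd, the principal cell markers had a summed level of 714 to 1106 CPM at 3 months. They summed to 311 to 472 CPM at 12 months and 388 to 592 CPM at 24 months. Avpr2 was called lower at both older ages. Aqp2 was called lower at 12 versus 3 months (log2 fold change -2.18), with means of 474 CPM at 3 months and 104 CPM at 12 months. All 7 markers were above 0 at every age. The 7 inner medulla and osmolyte genes summed to 609.9 to 682 CPM at 3 months, 327 to 478 CPM at 12 months and 468 to 703 CPM at 24 months. Of these, 3 were called lower at 12 versus 3 months, namely the urothelial genes Upk3a (-5.13) and Upk1b (-4.96) and the inositol transporter Slc5a3 (-1.36), and 0 at 24 versus 3 months. Bsnd is also expressed in intercalated cells, whose 7 markers summed to 194 to 331, 121 to 288 and 166 to 226 CPM. The 10 immediate early and heat shock genes, which respond to handling of tissue, summed to 140.1 to 294 CPM at 3 months, 80.04 to 97.4 CPM at 12 months and 163 to 1041 CPM at 24 months. Hspa1b (-3.70), Hspa1a (-2.70) and Dnajb1 (-1.34) were called lower at 12 versus 3 months, and Fos was called higher at 24 months than at 3 (5.40) and 12 months (6.36), with 4.01 to 97.8 CPM in the 24-month kidneys. The part of these lists in the result was not tested.

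The levels of most of the 8 genes moved with a property of the library, the balance between long and short transcripts. For each kidney the median deviation of genes with a transcript under 1.2 kb (n = 1490) was taken from that of genes over 5 kb (n = 2749), on the log2 scale. This balance was -0.30, 0.49 and -0.86 at 3 months, 0.20, -0.67 and 0.24 at 12 months and 0.59, -0.02 and 0.29 at 24 months. The 3 ages overlapped. Over the 9 kidneys, which differ in age and in the gene set used, Pearson's r with this balance was 0.95 for Egf (Spearman's rho 0.97), 0.82 for Slc12a3, 0.77 for Umod and 0.74 for Slc12a1. It was -0.93 for Cldn16 (rho -0.88) and -0.63 for Pvalb, whose transcripts of 1.17 and 0.977 kb are the shortest of the 8. It was -0.31 for Bsnd and -0.29 for Kcnj1. In deviations from the age means, r was 0.98 for Egf, 0.92 for Umod, 0.90 for Slc12a3, 0.72 for Slc12a1, -0.09 for Bsnd, -0.50 for Kcnj1, -0.78 for Pvalb and -0.96 for Cldn16.

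**Figure D5:**
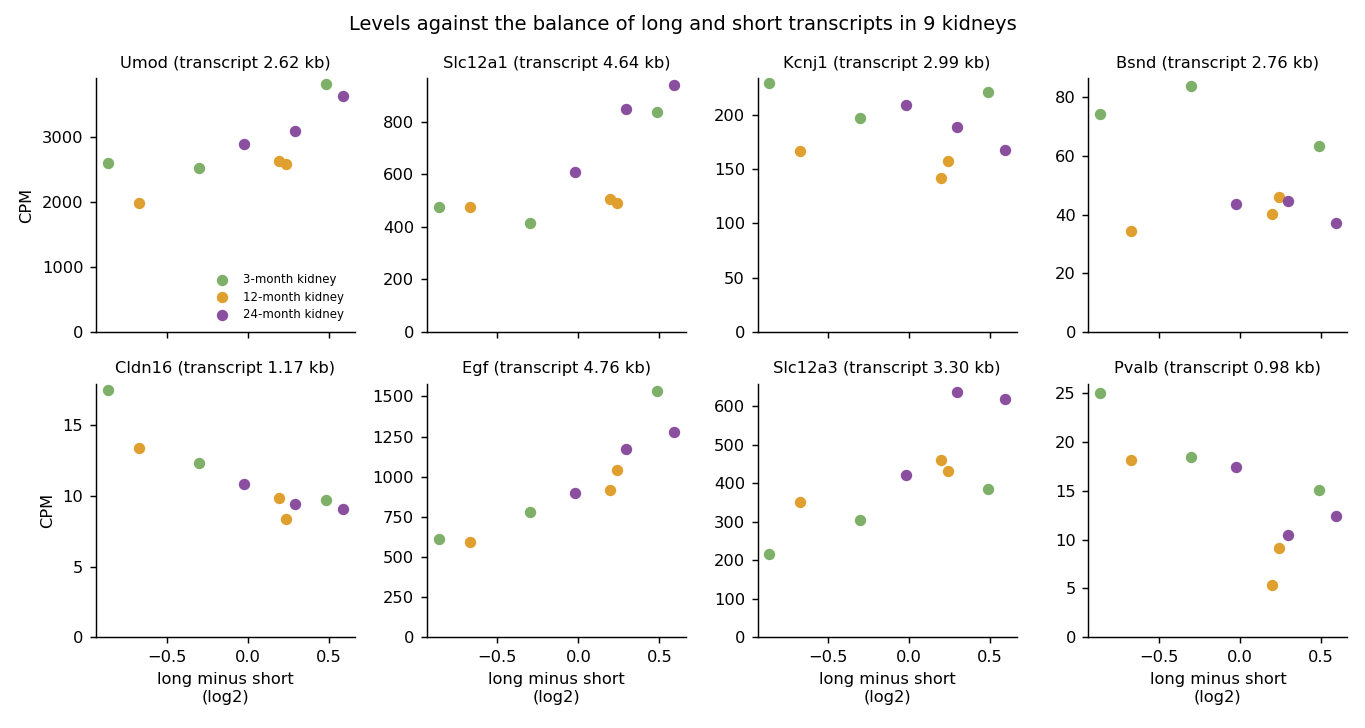
CPM of each gene against the long-minus-short transcript balance (log2) of the same library in 9 kidneys, coloured by age, with the length of the principal transcript in each title. Egf rises along the axis (r = 0.95) and Cldn16 falls (r = -0.93) within each age, and Bsnd has r = -0.31.

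When the length trend was removed from each kidney, in an alternative added after the data were seen, the spread within 3-month kidneys (SD of log2 CPM) went from 0.42 to 0.16 for Cldn16, from 0.37 to 0.07 for Pvalb and from 0.69 to 0.51 for Egf. It went up for Umod, from 0.33 to 0.35, and for Kcnj1, from 0.12 to 0.13. Over 8 genes and 3 ages the spread was lower in 18 of 24 cases. The fall of Bsnd kept its size, at -0.81 at 24 months (adjusted p = 0.0314) and -0.91 at 12 months (adjusted p = 0.0215). The value of Cldn16 at 24 versus 3 months went from -0.43 to -0.16 and that of Pvalb from -0.54 to -0.25, neither of them called. Slc12a3 stayed at 0.84 (adjusted p = 0.0797), and Kcnj1 was called at 12 months (-0.52, adjusted p = 0.0475). In PTEC the balance was -1.31 in non-senescent culture 3 and -0.02 to 0.16 in the other 3, and -0.31 in senescent culture 3 and 0.42 to 0.49 in the other 3. The 5 calls in PTEC were kept with the length trend removed. The part of RNA quality in this balance was not tested.

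Among the 28 pairs of the 8 genes, Pearson's r over the 9 kidneys was above 0.7 for 6 and below -0.7 for 2. It was 0.88 between Umod and Egf, 0.86 between Umod and Slc12a1, 0.81 between Slc12a1 and Egf, 0.79 between Kcnj1 and Pvalb, 0.73 between Cldn16 and Pvalb and 0.70 between Slc12a1 and Slc12a3. Cldn16 went against Slc12a3, at -0.85, and against Egf, at -0.82. Without the 2 kidneys farthest from the median of the first gene these 8 values were, in the same order, 0.75, 0.68, 0.78, 0.48, 0.55, 0.34, -0.64 and -0.60. In deviations from the age means they were 0.94, 0.85, 0.81, 0.64, 0.71, 0.73, -0.87 and -0.94. The points share the ages and the length balance described above. The 5 genes most like the mean profile of the 8 among 13311 genes compared were Lonrf3 (r = 0.98), Ftl1-ps1, Tmc5, Sim2 and Pfkp (each 0.95). The gene most like each single member was Pde12 for Umod (r = 0.99), Pcsk6 for Slc12a1 (0.97), Gm13655 for Kcnj1 (0.98), Slc9a4 for Bsnd (0.97), Atp5o for Cldn16 (0.99), Traf6 for Egf (0.99), Zfp750 for Slc12a3 (0.98) and Slitrk6 for Pvalb (0.97). With 9 kidneys and 13311 genes, values of this size are the highest of many, and they are given as a description.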

How the data were processed

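Poly(A) RNA was sequenced from 8 PTEC cultures and 9 kidneys. The authors deposited raw counts per gene for each library, made with a directional paired-end kit and the nf-core/rnaseq pipeline on GRCm38. The aligner, the counter and the strand setting are not given in the sources used here. The PTEC files held 53715 gene identifiers, the 3-month kidneys 54146 and the older kidneys 55401. Kidneys were compared over the 53772 identifiers common to them. Symbols, positions and lengths came from GENCODE M21, promoters from RefSeq.

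Counts were tested with edgeR 4.0.16 in R 4.3.3 (filterByExpr, TMM scaling, robust quasi-likelihood fit, Benjamini-Hochberg adjustment over all tested genes). Calls needed a log2 fold change beyond 0.5 in either direction and, after adjustment, p under 0.05. PTEC were fitted alone, and the 3 ages shared 1 estimate of the spread. Levels are CPM on TMM-scaled library sizes, and log2 CPM used a prior count of 2. The fits were tested on simulated data. Limma 3.58.1, DESeq2 1.42.0, matplotlib 3.10.9, pandas 2.3.3, scipy 1.17.1, numpy 2.4.6 and Python 3.11.15 were also used.

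The members and lists were chosen with earlier results of these data known. The genes named were the 8 members, up to 3 called genes of largest absolute log2 fold change per list, the 5 genes most like the members' mean profile and 1 gene most like each member. Others were named after their values were seen: Esrrb, Ptger3, Lrp2, Slc34a1, Atp2b4, Trpm6, Slc41a3, Egfr and the antisense genes Gm14002 and Gm44588. Some listed genes are not reported here. Depth was 26963442 to 66894790 counts per library, and intervals cover counting error only.

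Alternatives were DESeq2, RLE scaling, library totals, no filter, the compared ages alone, a threshold of 1, a replicate block and leaving out each library. In PTEC, deviations from the group means correlated between equal replicate numbers (r = 0.28, 0.38, 0.61 and 0.19). They did so between 24 and 12 months too (0.38, 0.56 and 0.17). In the comparisons with 3 months r was negative, at -0.05, -0.70 and -0.61 for 12 months and -0.03, -0.42 and -0.22 for 24 months. Equal numbers therefore go together in PTEC, and in the kidneys of 24 and 12 months, by correlation alone. The labels give no shared animal or day, so that a pairing is not established. Libraries numbered 3 in both PTEC groups, and 2 at 12 and 24 months, also had the lowest long-minus-short balance of their groups. The part of this balance in the correlations was not tested.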

Additional observations from a re-analysis of the deposited data

Results flagged for a closer look

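Among groups of 4 libraries, single values that stood apart by Dixon's criterion were found for 2 genes, both in non-senescent PTEC culture 4. Slc12a1 was at 17.6 CPM there, with the next culture at 5.22 CPM. Kcnj1 was at 7.49 CPM there, with the next culture at 1.45 CPM. Of 15 groups examined, 2 were flagged, and both flags came from the same culture. Chance marks about 1 in 20 groups in this way where values are normal and groups independent, which was not tested. The kidney groups of 3 were not examined.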

How the results depend on the processing

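In PTEC all 48 fold changes from fits without 1 culture and all 48 from other settings kept their direction and their call, the replicate block included (Umod -2.66, Slc12a1 -4.48, Kcnj1 -5.42, Bsnd -6.52, Cldn16 -3.75, Egf 0.40). Egf ranged from 0.249 to 0.733 without single cultures and was not called, and lower calls were 5 or 6, the sixth being Slc12a3 where it was tested. Leaving out both cultures numbered 4, setting levels beside the kidney without non-senescent culture 4, removing the length trend and the principal-transcript scale were chosen after seeing the data. Between 24 and 3 months the 1 lower call, Bsnd, became 0 with the compared ages alone (adjusted p = 0.0650), with no filter (0.0590), with the replicate block (0.114) and at a threshold of 1, and 0 to 1 without single kidneys. Higher calls went from 0 to 1 (Slc12a3) with DESeq2, and were 0 to 1 without single kidneys. Between 12 and 3 months the 1 lower call became 0 with the compared ages alone (adjusted p = 0.0999), the replicate block (0.0960) and a threshold of 1, 0 to 1 without single kidneys, and 2 with the length trend removed. The block took calls over all genes between 24 and 12 months from 153 higher and 74 lower to 0 of each (1930 at an unadjusted p under 0.05), and changed no call among the 8 genes there. Without single kidneys, uncalled values that changed direction ranged from -0.0486 to 0.690 for Egf at 24 versus 3 months (lowest without 3-month replicate 3), from -0.443 to 0.29 for Egf at 12 versus 3 months (above 0 without 3-month replicate 2, and 0.0084 without 12-month replicate 2) and from -0.420 to 0.14 for Slc12a1 at 12 versus 3 months (highest without 3-month replicate 2). At 24 versus 12 months they ranged from -0.0414 to 0.172 for Bsnd and from -0.240 to 0.10 for Cldn16, both changed without 12-month replicate 2, and from -0.0154 to 0.891 for Pvalb, changed without 12-month replicate 1. With the length trend removed Cldn16 was at 0.0681 there. The cause was not tested. Low depth limits Umod and Slc12a1 (up to 16 and 13 counts per senescent library) and, with at most 8, Kcnj1, Bsnd, Slc12a3 and Pvalb.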
